A study of Mus musculus with 8 samples.

Results

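The Dlx genes encode homeodomain transcription factors and lie in the mouse genome as 3 neighbouring pairs, Dlx1 with Dlx2 on chromosome 2, Dlx5 with Dlx6 on chromosome 6 and Dlx3 with Dlx4 on chromosome 11. The 6 genes were chosen by position, through 3 approximate windows on the mm9 build, each read with 100 kb of flank on both sides. The core windows spanned 71340001 to 71410000 on chromosome 2 (70 kb), 6790001 to 6850000 on chromosome 6 (60 kb) and 94950001 to 95030000 on chromosome 11 (80 kb). The flanked windows held 108 of the 107140 islands in the 8 lists analysed, between 11 and 20 per list.

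The Dlx pairs descend from an old tandem duplication, and the members of a pair are usually transcribed towards each other with enhancers between them. Dlx1, Dlx2, Dlx5 and Dlx6 are best known for the differentiation of forebrain GABA interneurons and for patterning of the jaw, Dlx5 also for bone, and Dlx3 for epidermis, hair and tooth. None is known as a hepatocyte regulator. H3K27me3, trimethylation of histone H3 at lysine 27, is deposited by the Polycomb complex PRC2 and goes with gene silencing; developmental homeobox genes are its classical targets in tissues where they are silent.

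The mark was profiled by chromatin immunoprecipitation and sequencing in livers of outbred male CD-1 mice obtained at 7 weeks of age. The livers were collected 3 h after injection of 3 mg/kg TCPOBOP, an agonist of the nuclear receptor CAR, or of vehicle alone (corn oil with 1% DMSO). Fragments of 600 to 1100 bp, digested to 500 bp, gave 3 TCPOBOP and 3 vehicle libraries, each from 1 liver. Fragments over 1100 bp, digested to 200 bp, gave 1 library from the ChIP sample of replicate 1 in each treatment. Whole liver was used, so a mark present in a share of the cells and a weaker mark in every cell cannot be told apart.

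An island is a stretch that the authors' caller found enriched in 1 library, and cover is the percent of a window lying under islands. Lists for 600 to 1100 bp held 6295 to 14748 islands each, over 174 to 340 Mb. Those for longer fragments held 22077 islands over 676 Mb with TCPOBOP and 17577 over 654 Mb with vehicle. Read totals are unknown, so no counting interval was possible. The lowest score in a list was 71.0 and 77.7 in TCPOBOP replicates 2 and 3 and 84.6 in vehicle replicate 1. It was 44.2 in TCPOBOP replicate 1 and 48.3 and 41.0 in vehicle replicates 2 and 3. An approximate window over Alb and Afp, which encode the liver proteins albumin and alpha-fetoprotein, was at 0% in the 8 lists. So were many autosomal windows of its width, 70 kb. Their share in lists for 600 to 1100 bp ran from 66.9% in vehicle replicate 2 to 80.2% in TCPOBOP replicate 3. For longer fragments it was 48.6% with TCPOBOP and 52.6% with vehicle. The value of 0% therefore cannot serve as a check of the tissue.

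Promoters rich in the CG dinucleotide are common among Polycomb targets. RefSeq promoter sequences (build GRCm38.p6, 250 bases before to 50 after the start) were at hand for 2 of the 6 members. They are shown, with CG in capitals, as the regulatory sequence of the first pair described. Their positions belong to GRCm38.p6 and were not placed on the mm9 islands. Dlx1 is on the + strand at chr2:71529195-71529494 and Dlx2 on the - strand at chr2:71546705-71547004.
Dlx1: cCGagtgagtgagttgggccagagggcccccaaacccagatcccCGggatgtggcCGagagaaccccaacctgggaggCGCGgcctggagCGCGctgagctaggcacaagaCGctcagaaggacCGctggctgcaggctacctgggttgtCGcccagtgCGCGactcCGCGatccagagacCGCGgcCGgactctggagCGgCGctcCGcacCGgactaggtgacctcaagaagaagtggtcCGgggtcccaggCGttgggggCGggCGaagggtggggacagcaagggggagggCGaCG
Dlx2: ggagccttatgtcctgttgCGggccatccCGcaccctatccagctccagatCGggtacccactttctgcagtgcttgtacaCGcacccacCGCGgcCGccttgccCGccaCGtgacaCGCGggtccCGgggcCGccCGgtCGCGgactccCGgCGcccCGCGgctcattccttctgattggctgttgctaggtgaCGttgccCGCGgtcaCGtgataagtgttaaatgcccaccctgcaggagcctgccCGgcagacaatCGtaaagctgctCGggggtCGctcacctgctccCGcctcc
The Dlx1 promoter holds 27 CG and is 69.3% G or C, and the Dlx2 promoter holds 29 CG and is 66.3% G or C. CG reads the same on both strands and cannot overlap itself. Across 32851 promoters of the same length the median was 7 CG and 52.7% G or C, and 94.6% held at least 1 CG. As many CG as in Dlx1 were found in 15.5% of these promoters, and as many as in Dlx2 in 12.9%.

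Islands lay over each of the 3 core windows in each of the 8 lists. Dlx1-Dlx2 sat under a leading island whose left edge varied little, and Dlx5-Dlx6 under one over 74 to 98% of its core in the 6 livers. For Dlx3-Dlx4 the leading island lay over 26 to 90% of the core in the 6 livers.

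**Figure D1:**
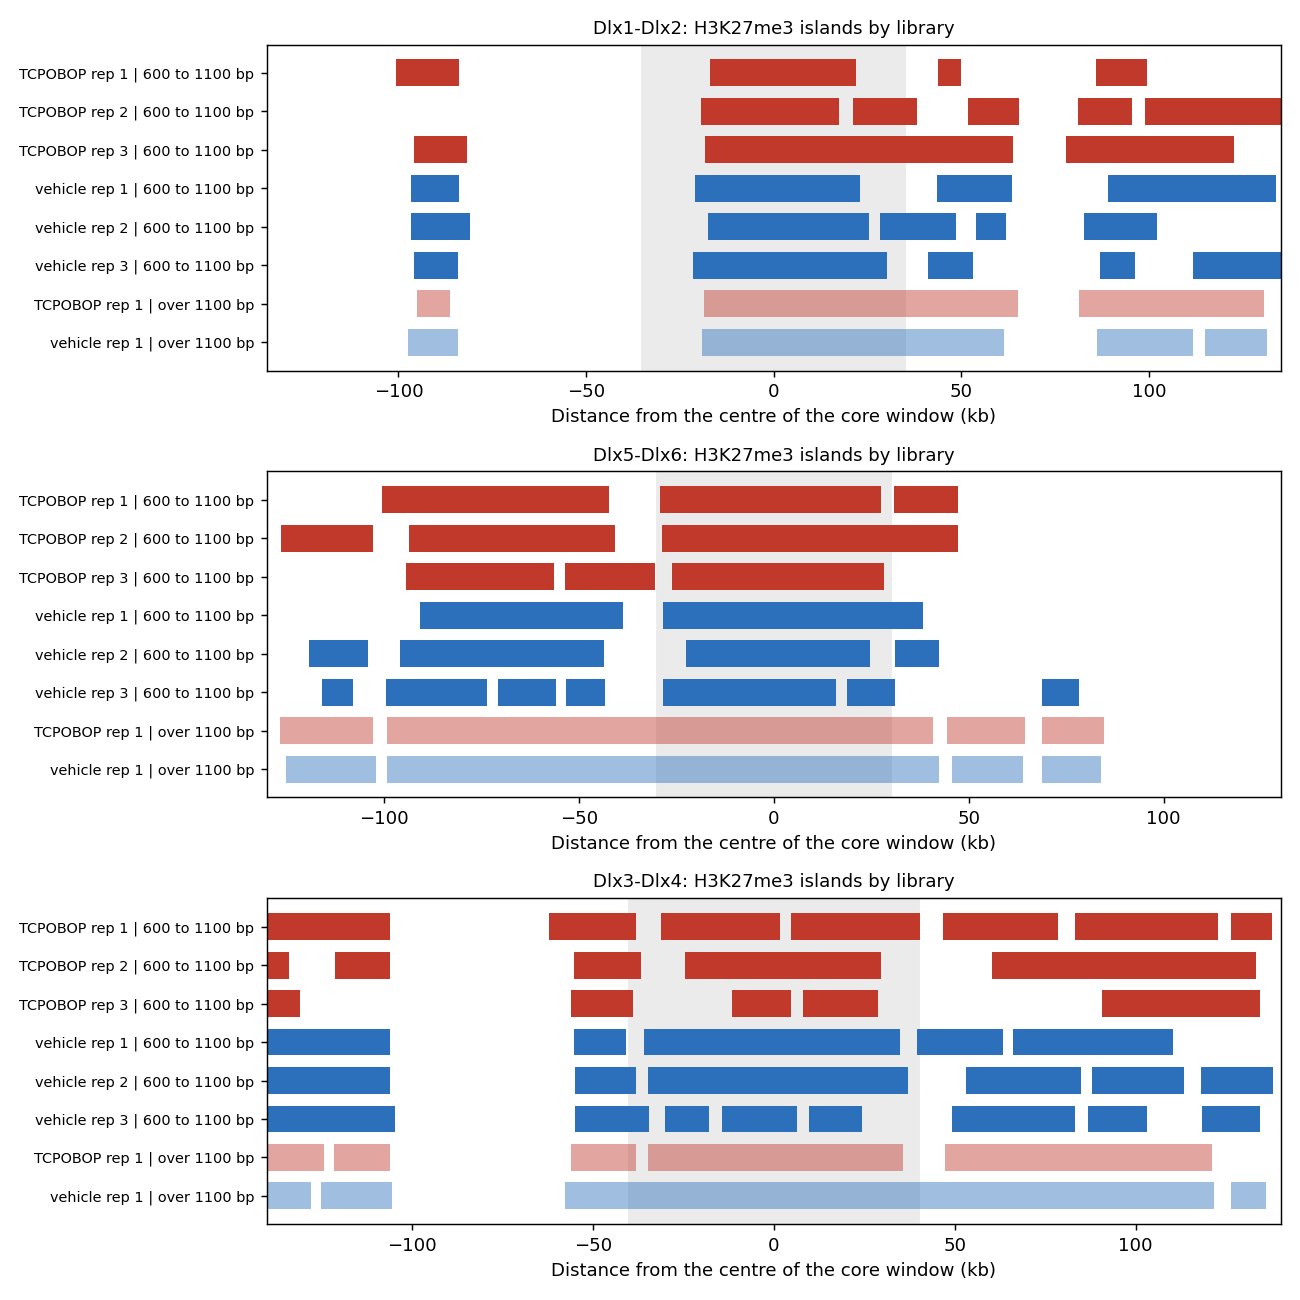
Islands in the 3 Dlx windows with 100 kb flanks, 1 row per library (red TCPOBOP, blue vehicle, pale colours for fragments over 1100 bp), by distance in kb from the centre of the core window, which is shaded. Islands are cut at the plot's edge. The Dlx1-Dlx2 island starts within 4.4 kb in the 8 lists. The Dlx3-Dlx4 core is touched by 2 to 4 islands in each of the 6 livers, some of them only at its edge.

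Cover of the Dlx1-Dlx2 core was 55.4, 72.6 and 76.0% in TCPOBOP replicates 1 to 3, against 62.9, 70.9 and 73.7% in vehicle replicates 1 to 3. The treatments overlapped, and the lowest and the highest value both belonged to TCPOBOP livers. The leading island, the one covering most of the core, was 38.8, 36.8 and 82.0 kb wide in the TCPOBOP livers and 44.0, 42.8 and 51.6 kb in the vehicle livers. TCPOBOP replicate 3 stood apart because its island ran on to 71438800, where the other livers had a break before that point.

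The left edge of this island was nearly the same in every list. It began at 71358001, 71355601 and 71356801 in the TCPOBOP livers and at 71354001, 71357601 and 71353601 in the vehicle livers, a range of 4.4 kb. The right edge ranged over 46.4 kb, from 71392400 in TCPOBOP replicate 2 to 71438800 in TCPOBOP replicate 3. To the left, the 59.6 kb between 71294001 and 71353600 were free of islands in the 8 lists. In the middle of the window, the 34.4 kb between 71358001 and 71392400 were covered in each of the 8 lists.

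By score, the leading Dlx1-Dlx2 island ranked 73 of 13759, 139 of 10197 and 56 of 6295 in the TCPOBOP lists, and 139 of 10057, 90 of 14748 and 60 of 12430 in the vehicle lists. It was thus among the top 1.38% of islands in each of the 6. By score per kb it ranked 33, 14 and 522 in the TCPOBOP lists and 14, 32 and 241 in the vehicle lists. The weakest of these densities was in TCPOBOP replicate 3, where the island was the widest. The scores are the authors' own and were used to rank islands within a list.

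Dlx5 and Dlx6 had the highest mean core cover of the 3 pairs over the 6 livers, although in vehicle replicate 2 Dlx3-Dlx4 was higher. With flanks the mean was higher for Dlx3-Dlx4, and no test of this order was made. Cover of their core was 94.7, 98 and 90.7% in the TCPOBOP livers, against 97.3, 78.7 and 92.7% in the vehicle livers. The TCPOBOP values lay inside the range of the vehicle values, apart from replicate 2, which was the highest of the 6. The leading island was 56.8, 76.0 and 54.4 kb wide in the TCPOBOP livers and 66.8, 47.2 and 44.4 kb in the vehicle livers.

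Its left edge fell between 6790801 and 6797601 in the 6 livers, a range of 6.80 kb, and its right edge between 6836000 and 6867200, a range of 31.2 kb. Islands of the 8 lists had in common 38.4 kb, from 6797601 to 6836000, and a further 6.0 kb, from 6838801 to 6844800. By score the island ranked 141, 120 and 136 in the TCPOBOP lists and 148, 160 and 183 in the vehicle lists.

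To the left of Dlx5-Dlx6 a second block of islands was found in the 6 livers, separated from the pair by a gap at the window's edge. Cover of the 100 kb left flank was 58.0, 76.4 and 61.2% in the TCPOBOP livers and 52.0, 67.6 and 58.8% in the vehicle livers. Cover of the right flank was 16.4, 17.2 and 0% in the TCPOBOP livers and 8.40, 11.2 and 10.8% in the vehicle livers. The left flank was the more covered in 6 of 6 livers. In the RefSeq gene order of GRCm38.p6, Sem1 precedes the pair and Sdhaf3, a factor for succinate dehydrogenase assembly, follows it. Those genes were not placed on mm9.

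Core cover of Dlx3 and Dlx4 had the widest range of the 3 pairs over the 6 livers. Their core was covered to 87.5, 71.5 and 48.0% in the TCPOBOP livers, against 89.0, 92.5 and 66.5% in the vehicle livers. TCPOBOP replicates 2 and 3 and vehicle replicate 3 were low, so the treatments overlapped. The leading island was 35.6, 54.0 and 20.8 kb wide in the TCPOBOP livers and 70.8, 72.0 and 20.8 kb in the vehicle livers. The core was touched by 3, 2 and 3 islands in the TCPOBOP livers and by 2, 2 and 4 islands in the vehicle livers. Some only reached its edge. In TCPOBOP replicate 2 and vehicle replicates 1 and 2, the second island covered 4, 0.5 and 2.5% of the core. The cores of the other pairs were touched by 1 or 2 islands in each liver.

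The shared part of the core was smaller for Dlx3-Dlx4 than for the other pairs. The 8 lists had in common 13.2 kb, from 94978401 to 94991600, and 14.8 kb, from 94999601 to 95014400, together 35.0% of the core. The same share was 50.3% for Dlx1-Dlx2 and 74.0% for Dlx5-Dlx6. With flanks the order differed, at 60.4 kb shared for Dlx3-Dlx4, 41.6 kb for Dlx1-Dlx2 and 85.6 kb for Dlx5-Dlx6. Over the genome, 12.1% of the 400 bp windows covered in any of the 6 livers were covered in all 6. The leading Dlx3-Dlx4 island ranked 439, 218 and 791 by score in the TCPOBOP lists and 164, 146 and 936 in the vehicle lists. In TCPOBOP replicate 3 that was 12.6% down the list.

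To the left of Dlx3-Dlx4, a gap of 42.8 kb from 94885201 to 94928000 was free of islands in the 8 lists, and the 14 kb between 94935201 and 94949200, just outside the core, were covered in the 8. In the GRCm38.p6 gene order Pdk2, a pyruvate dehydrogenase kinase, and Itga3, an integrin subunit, precede Dlx3. Tac4, a tachykinin precursor, and Kat7, a histone acetyltransferase, follow Dlx4. No other protein-coding gene lies between the members of any of the 3 pairs.

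**Figure D2:**
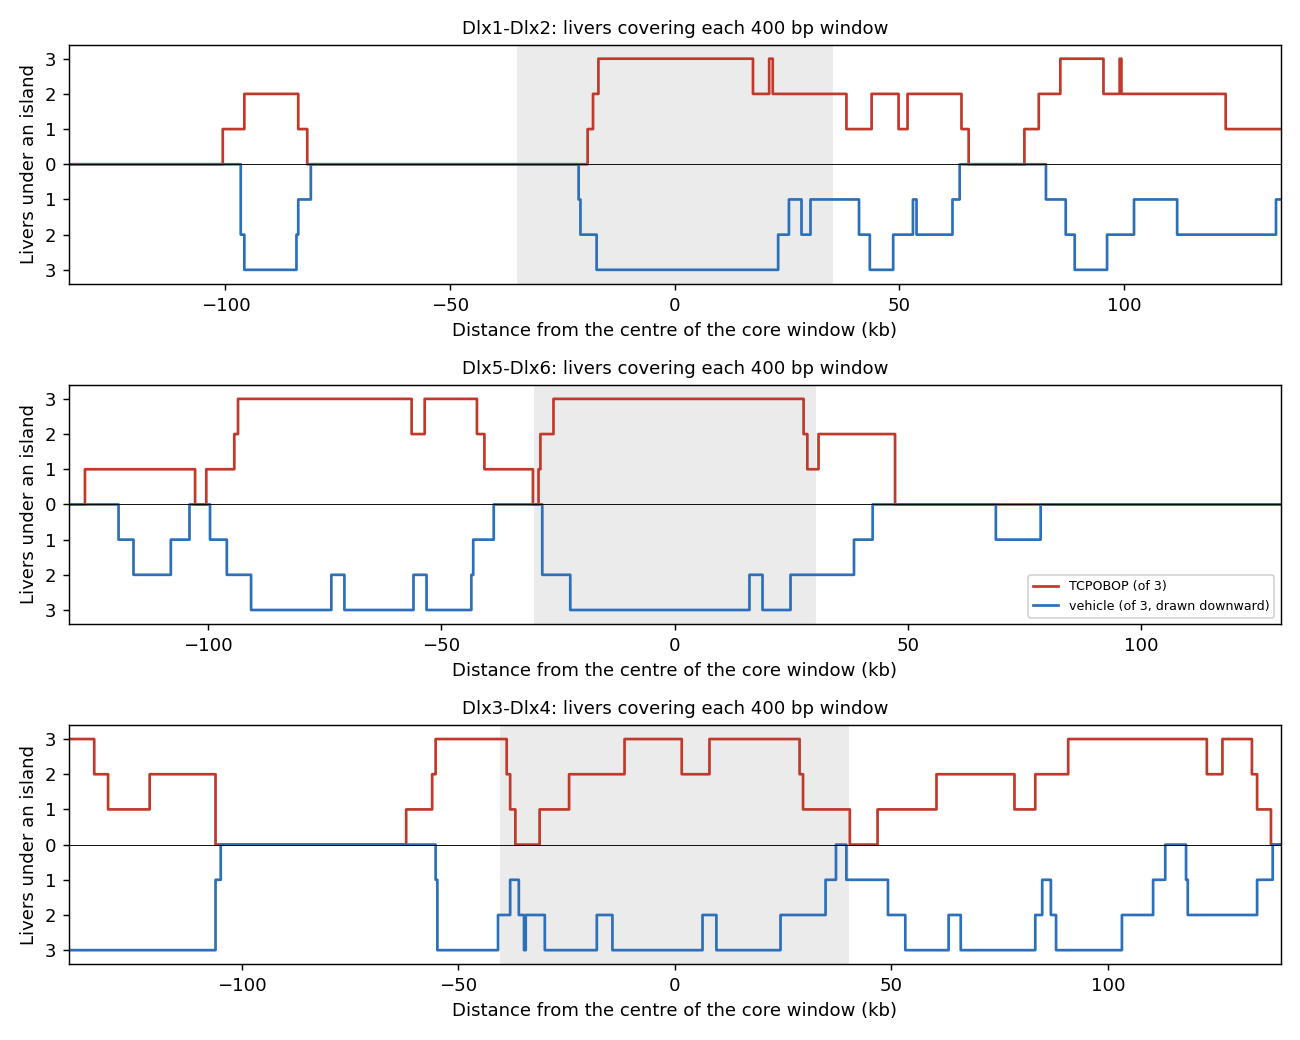
Number of livers under an island in each 400 bp window of the 3 Dlx regions, by distance in kb from the centre of the shaded core window. Red steps upward count the 3 TCPOBOP livers and blue steps downward the 3 vehicle livers; both reach 3 over 34.4 kb of Dlx1-Dlx2 and 38.4 kb of Dlx5-Dlx6 without a break.

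The Dlx windows were set beside all windows of equal width laid end to end along the autosomes. The median cover of these windows was 0% in each of the 6 livers, and the mean 7.05 to 13.8%. A cover of at least 55.4% in all 6 livers, the lowest value of Dlx1-Dlx2, was reached by 510 of 35266 windows of 70 kb (1.45%). For Dlx5-Dlx6 the lowest value was 78.7%, reached in all 6 livers by 179 of 41145 windows of 60 kb (0.435%). For Dlx3-Dlx4 it was 48.0%, reached by 608 of 30857 windows of 80 kb (1.97%). These shares are a description, and the Dlx windows were drawn around the genes while the others were not.

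Overlap between livers was also measured over each Dlx locus and over the genome. The Jaccard index, the length covered in both of 2 livers divided by that covered in either, had a median of 0.560 for the flanked Dlx1-Dlx2 window over the 15 pairs of livers. It was 0.709 for Dlx5-Dlx6 and 0.680 for Dlx3-Dlx4, and 0.402 for the genome. The pairs of livers share animals, and densely covered windows give a higher index, so no test was made. Between livers of different treatments the mean index was 0.596, 0.731 and 0.622 in the order Dlx1-Dlx2, Dlx5-Dlx6 and Dlx3-Dlx4. Between livers of the same treatment it was 0.534, 0.695 and 0.663 in that order.

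Cover of the Dlx pairs 3 h after TCPOBOP was compared with that after vehicle. The comparison was made with two-sided exact permutation tests, whose smallest possible p with 3 livers against 3 is 0.1. Mean core cover of Dlx1-Dlx2 was 68.0 ± 11.0% with TCPOBOP and 69.1 ± 5.63% with vehicle (SD, n = 3 each, difference -1.14 points, exact permutation p = 0.9). For Dlx5-Dlx6 it was 94.4 ± 3.67% with TCPOBOP and 89.6 ± 9.71% with vehicle (difference 4.89 points, exact permutation p = 0.6). For Dlx3-Dlx4 it was 69.0 ± 19.9% with TCPOBOP and 82.7 ± 14.1% with vehicle (difference -13.7 points, exact permutation p = 0.5). Each difference was smaller than the larger SD of its 2 groups. Leaving out 1 liver turned the Dlx1-Dlx2 difference to 5.14 points without TCPOBOP replicate 1 and 1.14 without vehicle replicate 3, and the Dlx5-Dlx6 difference to -0.556 points without vehicle replicate 2. The Dlx3-Dlx4 difference ranged from -22.9 points without TCPOBOP replicate 1 to -3.17 points without TCPOBOP replicate 3.

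With the flanks included, cover was 41.2 ± 12.3% with TCPOBOP and 41.4 ± 3.13% with vehicle for Dlx1-Dlx2 (exact permutation p = 1). It was 51.2 ± 7.10% with TCPOBOP and 47.4 ± 1.52% with vehicle for Dlx5-Dlx6 (exact permutation p = 0.5). For Dlx3-Dlx4 it was 57.4 ± 18.2% with TCPOBOP and 66.2 ± 5.38% with vehicle (exact permutation p = 0.6). The treatments overlapped in each of these 9 tests, the 3 on width included. Without TCPOBOP replicate 1 or vehicle replicate 1, the Dlx1-Dlx2 difference of -0.198 points became 6.49 or 1.60 points. Without TCPOBOP replicate 3, the Dlx3-Dlx4 difference of -8.81 points became 0.762 points. The SD was larger with TCPOBOP for each of the 3 flanked windows, a contrast that was not tested.

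The leading island of Dlx1-Dlx2 was 52.5 ± 25.5 kb wide with TCPOBOP and 46.1 ± 4.77 kb with vehicle (SD, n = 3 each, difference 6.40 kb, or -8.33 kb without TCPOBOP replicate 3, exact permutation p = 1). That of Dlx5-Dlx6 was 62.4 ± 11.8 kb with TCPOBOP and 52.8 ± 12.2 kb with vehicle (exact permutation p = 0.5). That of Dlx3-Dlx4 was 36.8 ± 16.6 kb with TCPOBOP and 54.5 ± 29.2 kb with vehicle (exact permutation p = 0.4). Leaving out 1 liver moved the Dlx5-Dlx6 difference of 9.60 kb between 2.80 kb without TCPOBOP replicate 2 and 16.6 kb without vehicle replicate 1. It moved the Dlx3-Dlx4 difference of -17.7 kb between -34.6 kb without vehicle replicate 3 and -9.0 kb without vehicle replicate 2. Width depends on short breaks in an island. With islands 5 kb apart or less joined, a setting chosen after seeing the data, the treatments no longer overlapped for 2 pairs.

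With islands so joined, the Dlx3-Dlx4 island was 71.6, 54.0 and 40.4 kb wide in the TCPOBOP livers and 165.6, 92.0 and 79.2 kb in the vehicle livers (difference -56.9 kb, exact permutation p = 0.1, the smallest possible). The Dlx5-Dlx6 island was 76.4, 76.0 and 122.8 kb wide in the TCPOBOP livers and 66.8, 47.2 and 59.6 kb in the vehicle livers (difference 33.9 kb, exact permutation p = 0.1). The directions were opposite in the 2 pairs. Of 4759 windows of 80 kb with an island in each of the 6 livers, 3.17% showed no overlap with narrower islands in TCPOBOP livers and 2.63% with wider ones. Of 5233 such windows of 60 kb, 2.25% showed no overlap with wider islands in TCPOBOP livers and 3.31% with narrower ones.

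**Figure D3:**
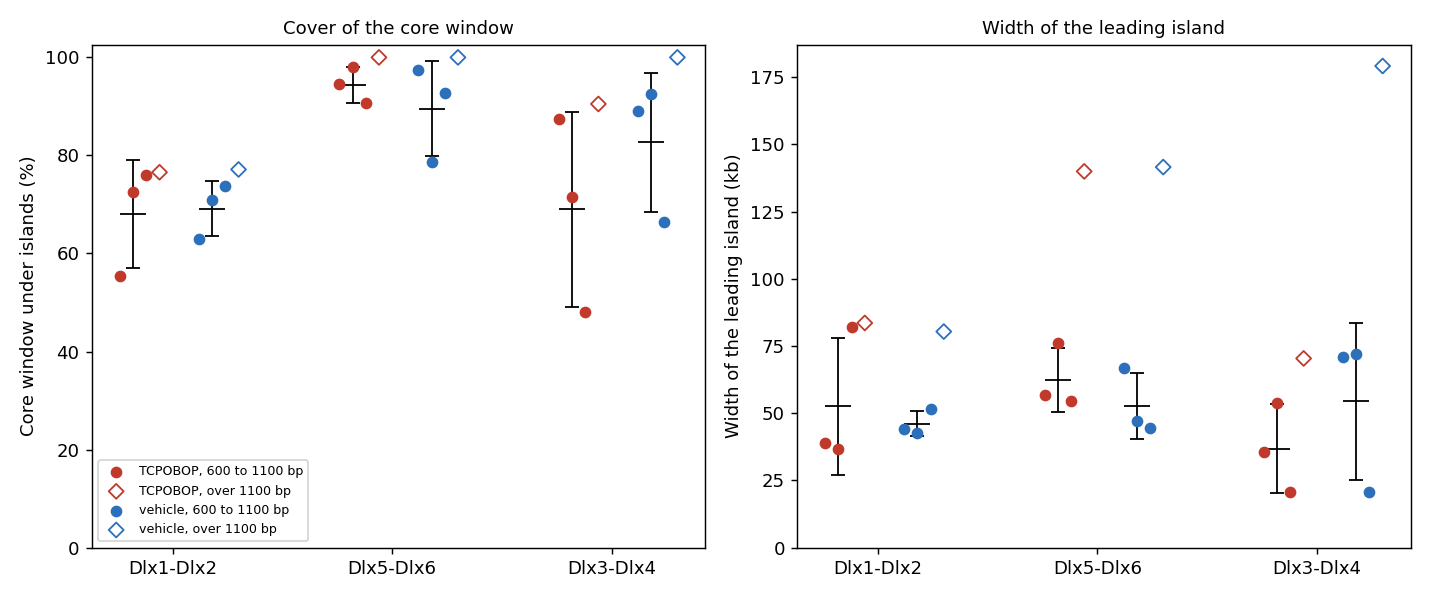
Core cover in percent (left) and width of the leading island in kb (right) for the 3 Dlx pairs. Filled points are livers, TCPOBOP in red left of vehicle in blue, with mean and SD as bars (n = 3 each), and open diamonds are the libraries of fragments over 1100 bp; the filled points of the treatments overlap for each pair.

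The lists whose lowest score was above 70 and those below 50 were also compared within themselves, a split chosen after seeing the data that leaves 1 liver in an arm. Among the 3 lists above 70, core cover of Dlx3-Dlx4 was 59.8% with TCPOBOP (2 livers) and 89.0% with vehicle (1 liver), and among the 3 lists below 50 it was 87.5% with TCPOBOP (1 liver) and 79.5% with vehicle (2 livers). For Dlx1-Dlx2 it was 11.4 points higher with TCPOBOP above 70, and the difference was -16.9 points below 50. For Dlx5-Dlx6 the differences were -3.0 points above 70 and 9.0 points below 50. With 1 liver in an arm these values are a description, and a difference between the sets was not tested.

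To place single stretches, cover was tested in bins of 10 kb across the genome with limma, a linear model that shares information on the spread between bins. Of 36857 bins at 50% or more in at least 2 livers, 53 lay in the Dlx windows, 15 for Dlx1-Dlx2, 16 for Dlx5-Dlx6 and 22 for Dlx3-Dlx4. At a limma adjusted p of 0.05, 0 of the 53 Dlx bins were called, where 0% of bins were called in either direction over the genome. At an unadjusted p under 0.05, 1 of the 53 was higher and 1 lower with TCPOBOP, where the genome gave 283 bins (0.768%) higher and 949 (2.57%) lower. That split became 741 higher and 323 lower after each library was centred. The median difference over the 53 bins was 0 points, beside -4 points over all bins tested. By pair the median was 0 points for Dlx1-Dlx2, 1.33 for Dlx5-Dlx6 and -9.33 for Dlx3-Dlx4. Of the 53 bins, 22 were lower with TCPOBOP, 20 higher and 11 equal. Without vehicle replicate 3, limma called 565 bins lower and 22 higher over the genome and 0 of the Dlx bins.

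Both bins with an unadjusted limma p under 0.05 lay in the flanked Dlx3-Dlx4 window. In the bin from 95100001 to 95110000, in the right flank, cover was 100% in each of the 3 TCPOBOP livers, against 4, 52 and 16% in the vehicle livers (difference 76.0 points, limma SE 25.5, limma adjusted p = 0.906). In the bin from 94950001 to 94960000, at the left edge of the core, it was 32, 32 and 12% in the TCPOBOP livers, against 60, 68 and 56% in the vehicle livers (difference -36.0 points, limma SE 13.9, limma adjusted p = 0.906). The livers did not overlap in these 2 bins. The left bin met the cover filter for testing through vehicle livers only. For the right bin the TCPOBOP livers were enough to meet it. Each bin was thus let in through the treatment in which it was high, so the separation is a description. The bins counted over the genome passed the same filter. With fragments over 1100 bp, the vehicle list had 1 island over the whole of both bins, from 94932401 to 95111600. The TCPOBOP list covered the right bin whole, from 95037201 to 95111200. It covered the left bin in part, with a break between 94952000 and 94955201. The contrast of the right bin was thus not seen in those lists, while the left bin was still less covered with TCPOBOP. Over the genome, 1.23% of bins were higher with TCPOBOP without overlap and 3.74% lower, beside 1 of the 53 Dlx bins each way. Neither bin passed the correction over all bins.

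At the finest step, 12 windows of 400 bp between 95103201 and 95108000, to the right of Dlx3-Dlx4, lay under islands in 3 TCPOBOP and 0 vehicle livers. A single 400 bp window, from 94955201, showed the opposite. In the Dlx1-Dlx2 and Dlx5-Dlx6 regions 0 windows did either. The 12 windows were 1 stretch within the right bin described above and the single one lay within the left bin, so these are not separate results. They were among 588 windows covered in any liver in the flanked Dlx3-Dlx4 window. Over the genome 0.263% of the windows covered in any liver were of the first kind and 0.932% of the second. With fragments over 1100 bp, replicate 1 of both treatments had islands over the 12 windows and over the single one. In the vehicle list this was 1 island, from 94932401 to 95111600. The contrast was thus not seen with the longer fragments.

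The 3 pairs were then set against each other within each liver, by the width of the leading island, with exact permutation tests that flip the sign of each liver's difference. The Dlx1-Dlx2 island was 3.67 ± 36.0 kb wider than that of Dlx3-Dlx4 (SD, n = 6 livers, wider in 3 of 6, exact permutation p = 0.781), a mean that was -7.84 kb without TCPOBOP replicate 3 and -1.76 kb without vehicle replicate 3. The Dlx5-Dlx6 island was 11.9 ± 21.9 kb wider than that of Dlx3-Dlx4 (wider in 4 of 6, exact permutation p = 0.313). Dlx1-Dlx2 minus Dlx5-Dlx6 gave -8.27 ± 23.7 kb (wider in 2 of 6, exact permutation p = 0.469). These 3 p-values are unadjusted. By width the pairs thus had no order that held across livers, while their ranks by score set Dlx1-Dlx2 first in 5 of 6 lists and Dlx3-Dlx4 last in 5 of 6.

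**Figure D4:**
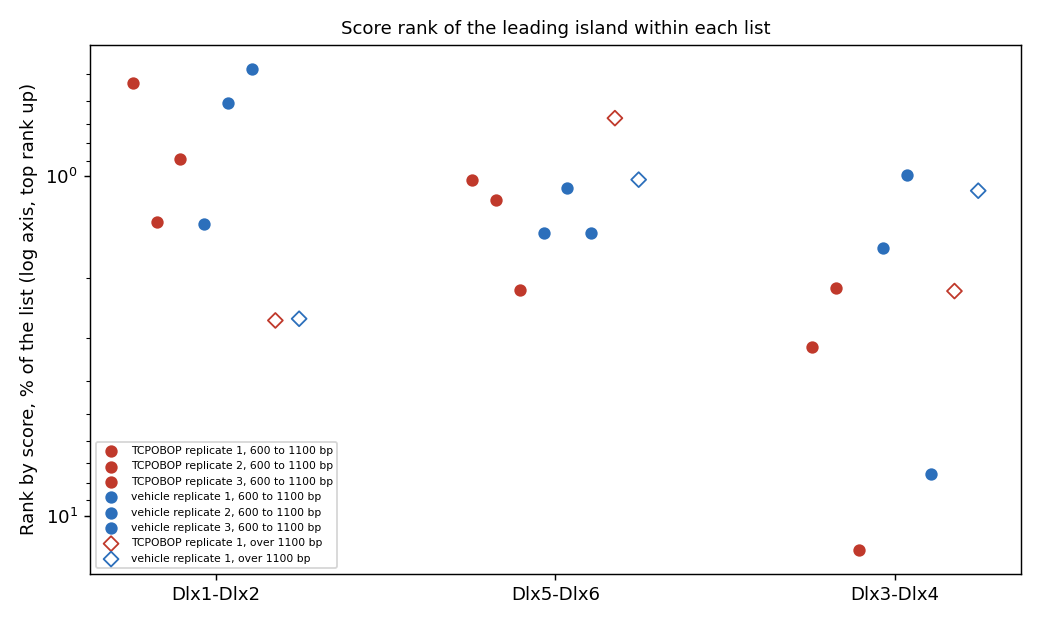
Rank by score of the leading island of each Dlx pair, as a percent of the islands in its list (log axis, top ranks upward), with TCPOBOP in red and vehicle in blue and the longer fragments as open diamonds. Dlx1-Dlx2 islands of the 6 livers sit between 0.483 and 1.38%, those of Dlx3-Dlx4 between 0.990 and 12.6%.

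Fragments over 1100 bp and of 600 to 1100 bp came from the same ChIP sample in replicate 1 of each treatment, so their islands were set side by side without a test. In the TCPOBOP liver, core cover was 76.6% with the longer and 55.4% with the shorter fragments for Dlx1-Dlx2. It was 100 and 94.7% for Dlx5-Dlx6, and 90.5 and 87.5% for Dlx3-Dlx4, longer fragments first. In the vehicle liver it was 77.1 and 62.9% for Dlx1-Dlx2, 100 and 97.3% for Dlx5-Dlx6, and 100 and 89.0% for Dlx3-Dlx4, in the same order. With flanks the longer fragments were again higher, except for Dlx3-Dlx4 in the TCPOBOP liver, at 69.1% with the longer and 74.6% with the shorter fragments.

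For the longer fragments, the leading islands of the 3 pairs were wider than for the shorter ones in both livers. Their Dlx5-Dlx6 island began at 6720801 in both livers and was 140.0 kb wide with TCPOBOP and 141.6 kb with vehicle, against 56.8 and 66.8 kb for the shorter fragments of those ChIP samples. It took in the block to the left of the pair. Their Dlx1-Dlx2 island kept the left edge, at 71356401 with TCPOBOP and 71356001 with vehicle. Of the length covered by the shorter fragments around Dlx1-Dlx2, 89.4% with TCPOBOP and 91.8% with vehicle lay within islands of the longer ones. The list lengths differ by library, so fragment class and total cover cannot be told apart.

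By rank, Dlx1-Dlx2 stood lower among the longer fragments, at 587 of 22077 with TCPOBOP and 462 of 17577 with vehicle. Dlx5-Dlx6 ranked 149 and 180 in those lists, and Dlx3-Dlx4 481 and 194, TCPOBOP first. The order of the pairs by score was therefore different from that in most lists of the shorter fragments.

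Other genes tied to Dlx function were read through approximate mm9 windows from general knowledge. Msx1 and Msx2 encode related homeodomain factors of the jaw and limb, and Gad1 and Gad2 encode the enzymes of GABA synthesis, which act downstream of Dlx factors in forebrain interneurons. Mean cover was 69.6 ± 22.8% with TCPOBOP and 81.6 ± 18.3% with vehicle at Msx1, and 69.1 ± 20.4% with TCPOBOP and 72.1 ± 13.7% with vehicle at Msx2 (SD, n = 3 each). At Gad1 it was 78.3 ± 15.6% with TCPOBOP and 86.1 ± 8.01% with vehicle, and at Gad2 47.9 ± 17.4% with TCPOBOP and 52.7 ± 28.0% with vehicle. All 4 windows were covered in part or whole in each of the 6 livers, from 25.3% at Gad2 in vehicle replicate 1 to 100% at Msx1 in the same liver. The treatments overlapped in these 4 windows, with exact permutation p-values of 0.6, 0.9, 0.7 and 0.9 in the order Msx1, Msx2, Gad1 and Gad2.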

How the data were processed

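The authors deposited 1 island list per library, with position and a score per island. Per the submitters' processing notes, Bowtie2 2.3.2, SICER 1.1 and the build mm9 were used, without roles. How the authors scaled the score is not stated, so it was ranked within lists. Island ends fell on multiples of 400 bp, and no 2 islands of a list were closer than 2800 bp. No source used here states whether an input was used. Coordinates are 1-based mm9. Replicates are separate livers.

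Cover, widths, exact tests and figures used Python 3.11.15, numpy 2.4.6 and matplotlib 3.10.9. The 10 kb bins were fitted with limma 3.58.1 (R 4.3.3; variance trend, Benjamini-Hochberg over all bins). A prior check on simulated data required calls only for changes of nearly a whole bin at a tight spread. It does not show which changes could be found at the spread of these lists. Named genes were the 6 members, their RefSeq neighbours and 5 further windows. The members and lists were chosen with earlier results of these data known. Same-numbered livers deviated together at correlations of 0.0266, 0.0158 and 0.0599 across bins, so the numbers were not taken as pairs.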

Additional observations from a re-analysis of the deposited data

How the results depend on the processing

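Of 76 values under alternatives that leave no liver out, 10 reversed, 23 kept their direction but moved by over 1.5 times, 14 moved by less and 13 equalled the first value. The other 16 were bin counts at 0 throughout, with no direction. The 3 against 3 tests cannot pass 0.05 under any setting. With the 2 fragment classes of a ChIP sample merged, the Dlx1-Dlx2 difference was 0.190 points in the core and 6.02 with flanks. With covered length made equal it was 0.148 with flanks. Merged, the width difference was -40.7 kb for Dlx3-Dlx4 and 20.7 kb for Dlx5-Dlx6. With 1 score minimum for all lists, the core difference was -7.81 points for Dlx1-Dlx2, 11.1 for Dlx5-Dlx6 and -8.67 for Dlx3-Dlx4. In the lists with a lowest score above 70, a split chosen after seeing the data, Dlx1-Dlx2 gave 11.4 points in the core and 2.89 with flanks, and Dlx5-Dlx6 -3 points and -1.6 kb of width. In those below 50, Dlx1-Dlx2 width gave -8.4 kb, and Dlx3-Dlx4 8 points in the core and 8.64 with flanks. Leaving out 1 liver gave -5.14 to 5.14 points for the Dlx1-Dlx2 core, -5.65 to 6.49 with flanks and -8.33 to 14.3 kb for its width. It gave -0.556 to 8.78 points for the Dlx5-Dlx6 core, -17.4 to 0.762 for Dlx3-Dlx4 with flanks, and -7.84 to 10.2 kb for Dlx1-Dlx2 minus Dlx3-Dlx4 width. The limma counts ranged over 0 to 565 bins lower and 0 to 22 higher, the highest without vehicle replicate 3. The cause of these changes was not tested. A replicate block gave 0 bins called either way (lowest limma adjusted p 0.786), and the numbers are no pairing. Read depth is unknown.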
